A study of Mus musculus with 12 samples.

Results

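The genes described here are 43 genes of the cell division cycle and of DNA replication, measured in mouse heart by sequencing of polyA RNA. They were taken by gene symbol from the 4 deposited tables, where all 43 were found among the 16246 genes listed in at least 1 table. By role, 30 act in mitosis, 11 in DNA replication or nucleotide supply, and 2 are D-type cyclins. The 12 samples are heart RNA of male C57Bl/6J mice aged 12 weeks, 3 samples in each of 4 groups, and no genetic change is named in the labels. Mice ate a control diet, which holds all essential amino acids, or a diet from which the branched-chain amino acids (BCAA: leucine, isoleucine, valine) had been left out. After 4 days on its diet each mouse had a sham operation or transverse aortic constriction (TAC), a narrowing of the aorta that overloads the left ventricle with pressure, and 2 weeks later the heart was taken, with the diet kept up throughout. Crossing diet and operation gives the groups, written as control diet or BCAA-free with sham or TAC, and each comparison shares its 2 groups with others. Whether a sample came from 1 heart or from pooled hearts is not given, so p-values measure only the spread between samples, which may be technical. Values are normalized read counts, a gene's reads divided by 1 factor per library, and sets of 3 values give replicates 1, 2 and 3 in that order.

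A cell that divides copies its DNA in S phase and separates the copies in mitosis. The MCM proteins form the helicase that opens DNA, PCNA is the clamp that holds the polymerases on it, and ribonucleotide reductase, thymidylate synthase and thymidine kinase supply the nucleotides. Mitosis is driven by CDK1 with B-type cyclins and carried out by spindle motors, kinetochore and checkpoint proteins, condensins and the cytokinesis machinery, while D-type cyclins link growth signals to entry into the cycle. Most cardiomyocytes of the adult heart have left the cell cycle, and fibroblasts, endothelial cells and immune cells are the ones known to divide after injury. In dividing cells the mitotic genes are switched on late, through promoter elements called the cell cycle genes homology region (CHR, TTTGAA) and the CCAAT box bound by NF-Y, and many replication genes are switched on earlier through sites for E2F.

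Promoters of members of both roles are shown because the CHR and E2F motifs differ in frequency between them. The table of RefSeq promoters, built on GRCm38.p6, spans 250 bases before and 50 bases after each start, and 36 of the 43 members matched it by symbol. Those without an entry are Mcm4, Tpx2, Ccnd2, Smc4, Ccna2, Ccnd1 and Aurkb. The stretches below run 5′ to 3′ in the direction of the gene, from 160 bases before the start to 12 bases after it. Capitals mark the CHR and CCAAT motifs just given and the E2F forms TTTGGCGC or TTTGCCGC or TTTCGCGC or TTTCCCGC, all searched on both strands.
Mki67 (chr7:135716368-135716539, minus strand): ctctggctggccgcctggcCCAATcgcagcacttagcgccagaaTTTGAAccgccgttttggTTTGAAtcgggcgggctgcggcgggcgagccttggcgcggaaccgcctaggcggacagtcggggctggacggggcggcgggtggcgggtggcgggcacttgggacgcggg
Ccnb2 (chr9:70421543-70421714, minus strand): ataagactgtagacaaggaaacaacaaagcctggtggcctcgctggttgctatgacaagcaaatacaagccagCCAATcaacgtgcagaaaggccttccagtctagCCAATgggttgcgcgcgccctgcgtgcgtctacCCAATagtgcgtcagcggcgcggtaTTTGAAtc
Cdk1 (chr10:69352901-69353072, minus strand): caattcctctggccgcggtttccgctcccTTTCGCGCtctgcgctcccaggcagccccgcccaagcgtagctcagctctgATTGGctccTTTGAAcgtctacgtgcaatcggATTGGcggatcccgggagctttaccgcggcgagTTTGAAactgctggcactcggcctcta
Bub1 (chr2:127831848-127832019, minus strand): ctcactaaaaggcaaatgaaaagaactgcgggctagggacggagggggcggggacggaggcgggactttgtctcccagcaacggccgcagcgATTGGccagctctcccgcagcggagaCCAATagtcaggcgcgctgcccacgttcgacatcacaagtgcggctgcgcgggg
Cenpf (chr1:189688075-189688246, minus strand): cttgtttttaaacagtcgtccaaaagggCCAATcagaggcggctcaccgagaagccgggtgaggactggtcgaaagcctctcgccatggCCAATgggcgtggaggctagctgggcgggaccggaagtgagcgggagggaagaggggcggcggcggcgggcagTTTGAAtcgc
Mcm5 (chr8:75109349-75109520, plus strand): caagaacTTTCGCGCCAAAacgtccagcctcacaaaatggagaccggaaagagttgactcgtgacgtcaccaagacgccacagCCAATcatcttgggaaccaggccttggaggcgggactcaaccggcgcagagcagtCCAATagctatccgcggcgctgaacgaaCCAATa
The proliferation antigen gene Mki67 and the kinase gene Cdk1 have CHR matches before the start, the cyclin gene Ccnb2 and the kinetochore gene Cenpf have one just after it in the stretch shown, and the checkpoint gene Bub1 has CCAAT matches without one. In the helicase gene Mcm5 an E2F match on one strand overlaps another on the opposite strand.

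TTTGAA occurred in 21 of the 26 mitosis members with a promoter (80.8%) and in 1 of the 10 replication members (10%), against 20.2% of the 27025 genes with a promoter in the table and 17.9% of the 32851 promoters. CCAAT was found in 22 mitosis members (84.6%) and in 8 replication members (80%), against 41.1% of all genes and 37.4% of all promoters. An E2F form was present in 2 mitosis members (7.69%), Cdk1 and the condensin gene Ncapd2, and in 4 replication members (40%), Mcm3, Mcm5, Mcm6 and Mcm7, against 2.6% of all genes and 2.26% of all promoters. The 1 replication member with TTTGAA was Mcm2. These matches describe letters in a window and not bound sites.

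**Figure D1:**
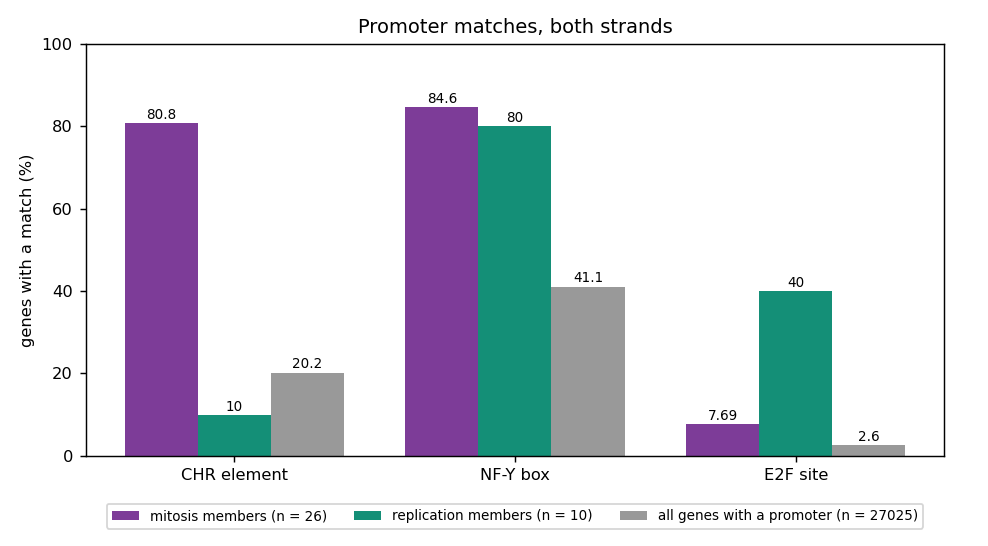
Share of genes (percent, vertical axis) whose promoter holds a match to the CHR element, the NF-Y box or an E2F site, for mitosis members, replication members and all genes with a promoter. The CHR bar is 80.8% for mitosis members and 10% for replication members, and the E2F bar is 7.69% and 40%.

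Library depth in recovered whole reads ran from 13848953 to 52059546 in the TAC tables, lowest in BCAA-free sham replicate 2. All 12 cardiomyocyte markers were listed in every table with none at 0 in any library, as fits the tissue label. The members were listed unevenly: 43 in the tables for TAC on the control diet and for the diet after TAC, 39 for the diet after sham and 37 in the TAC table of the BCAA-free diet. Control diet TAC replicate 2 stood apart, as the highest of the 6 libraries for 28 of 30 mitosis and 9 of 11 replication members in its TAC table. Control diet sham replicate 2 was the lowest for 27 of 30 mitosis members in that table. Ccna2, Prc1, Nusap1, Cdca8, Tk1, Ccnd1 and Ccnd2 each overlap a listed gene on the other strand, and Ccnb1, Ccnb2, Pcna, Tyms and Kif4 have pseudogenes, so reads of these pairs may not be fully told apart. In whole heart RNA, fewer cells of a dividing type and less RNA per cell cannot be told apart.

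The BCAA-free diet was compared with the control diet in TAC hearts to ask how the members differed under pressure overload when leucine, isoleucine and valine were missing. Of the 30 mitosis members, 27 fell on the BCAA-free diet, 1 rose and 2 did not pass the test, with a median log2 fold change of -2.28. Of the 11 replication members, 4 fell, 1 rose and 6 did not pass, with a median of -0.45. Both D-type cyclins fell. A call is an adjusted p under 0.05 by limma over all 15872 genes tested, of which 34.2% were called, 16.5% higher and 17.7% lower, and the median of all genes was 0.000258. Library totals alone as the scale moved that median to -0.129 and the called genes from 2618 higher and 2817 lower to 1461 and 3800, and turned the sign of Mcm4 and Ncapd2, neither of which was called. In 26 mitosis members and 4 replication members every BCAA-free TAC library lay below every control diet TAC library, as it did for 25.6% of all genes, and Cenpf and Pcna were the reverse, as were 25.2%. An unadjusted p under 0.05 was reached by 28 mitosis and 7 replication members and by 45.7% of all genes. Genes were tested if their mean over both groups was at least 10. Bub1, Hmmr, Ccnb1, Cdk1, Cenpe, Ect2, Cdca8 and Aurkb had BCAA-free TAC means under 10. They passed this filter only through their control diet TAC values, so their calls are no support. The count of 27 and the median of -2.28 include these genes. The other mitosis members that fell had BCAA-free TAC means of at least 10. Below, values in parentheses are log2 fold changes ± SE on the log2(value + 1) scale.

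**Figure D2:**
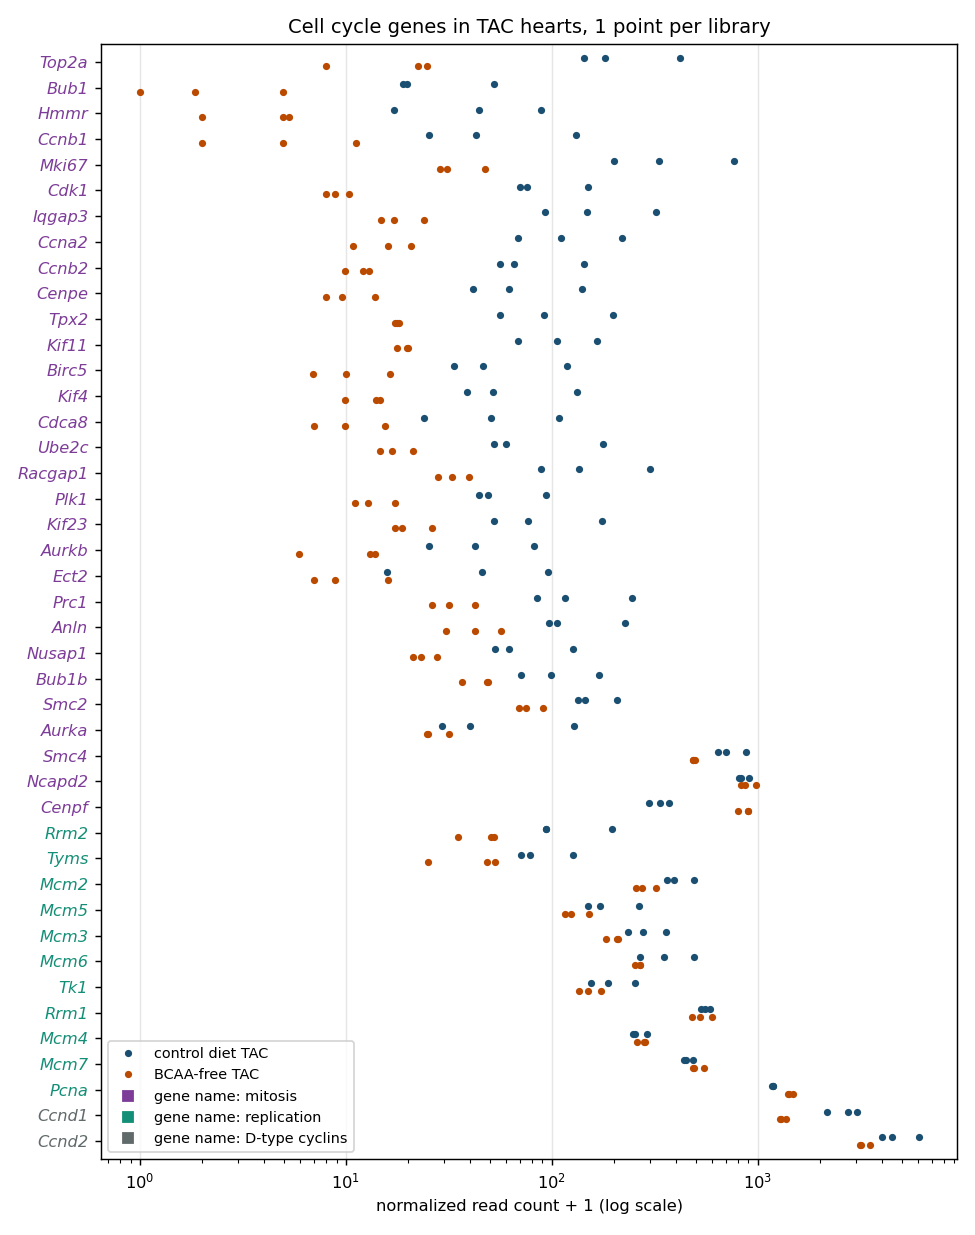
Normalized read count plus 1 (log axis) of all 43 members in the 3 control diet TAC and the 3 BCAA-free TAC libraries, 1 point per library, ordered within each role by log2 fold change. The 2 sets of points are separate for 26 of 30 mitosis members with the BCAA-free diet lower, are reversed for Cenpf, and lie close together for most replication members.

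Genes that drive mitosis fell. Cdk1, which encodes the kinase that starts mitosis, had values of 68.6, 149 and 74.5 on the control diet and 7.03, 9.39 and 7.90 on the BCAA-free diet. The groups did not overlap, and the ratio of the means was 12.0, higher on the control diet (-3.35 ± 0.33, adjusted p = 0.000642). Cyclin genes fell with it. Ccnb1 had 24.2, 129.7 and 41.9 on the control diet and 1.00, 10.2 and 3.95 on the BCAA-free diet (-3.44 ± 0.76, adjusted p = 0.0122), and rests on 17 reads over the 3 libraries (exact Poisson 95% interval 9.9 to 27.2) on the BCAA-free diet. Ccnb2 had 55.2, 141 and 64.5 on the control diet and 11.0, 11.9 and 8.88 on the BCAA-free diet (-2.80 ± 0.36, adjusted p = 0.00138). The S and G2 phase cyclin gene Ccna2 had 67.3, 217 and 109.7 on the control diet and 15.1, 19.6 and 9.87 on the BCAA-free diet (-2.95 ± 0.42, adjusted p = 0.00231). For all 3 cyclin genes replicate 2 was the highest control diet library and the groups were separate. Plk1, a kinase of spindle assembly and mitotic exit, had 43.1, 93.0 and 47.9 on the control diet and 10.04, 16.2 and 11.8 on the BCAA-free diet (-2.12 ± 0.34, adjusted p = 0.00298). Ube2c, the ubiquitin-conjugating enzyme of the anaphase-promoting complex, had 51.1, 176 and 58.5 on the control diet and 20.1, 13.7 and 15.8 on the BCAA-free diet (-2.24 ± 0.44, adjusted p = 0.00691).

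The markers of proliferating cells fell by more than most members. Mki67, the gene of the Ki-67 antigen that coats mitotic chromosomes, had 199, 764 and 331 on the control diet and 30.1, 46.1 and 27.6 on the BCAA-free diet, a ratio of 12.5 between the group means (-3.42 ± 0.47, adjusted p = 0.00307). Top2a, the topoisomerase that untangles sister DNA, had 143, 419 and 179.6 on the control diet and 7.03, 21.3 and 23.7 on the BCAA-free diet, a ratio of 14.2 (-3.75 ± 0.54, adjusted p = 0.00329). Both were separate between the diets in every library, and control diet TAC replicate 2 was the highest library for both. Hmmr, a spindle protein, had 16.2, 87.8 and 43.2 on the control diet and 1.00, 4.27 and 3.95 on the BCAA-free diet (-3.44 ± 0.63, adjusted p = 0.00519). Iqgap3, a scaffold protein of dividing cells, had 91.5, 321 and 147.7 on the control diet and 16.1, 23.0 and 13.8 on the BCAA-free diet (-3.17 ± 0.43, adjusted p = 0.002).

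Checkpoint and kinetochore genes split. Bub1, a kinase of the spindle checkpoint, had 18.8, 51.1 and 18.0 on the control diet and 0, 0.853 and 3.95 on the BCAA-free diet (-3.69 ± 0.66, adjusted p = 0.00427), with 5 reads over the 3 libraries (exact Poisson 95% interval 1.62 to 11.7) on the BCAA-free diet and 80 reads over the 3 libraries (exact Poisson 95% interval 63.4 to 99.6) on the control diet. Bub1b, the checkpoint protein BubR1, had 70.0, 169 and 97.8 on the control diet and 47.2, 47.8 and 35.5 on the BCAA-free diet (-1.26 ± 0.31, adjusted p = 0.0141). Cenpe, a kinetochore motor, had 60.6, 139 and 40.6 on the control diet and 7.03, 8.53 and 12.8 on the BCAA-free diet (-2.80 ± 0.44, adjusted p = 0.00287). These 3 genes were lower in each BCAA-free library. Cenpf, a large kinetochore protein, went the other way, with 367, 296 and 335 on the control diet and 896, 894 and 804 on the BCAA-free diet (1.38 ± 0.11, adjusted p = 0.000217), 2.60-fold higher on the BCAA-free diet. It was the only member of the mitosis role that rose, and its groups were separate.

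The spindle motors and the genes of the chromosomal passenger complex fell. Kif11, the motor that pushes spindle poles apart, had 67.3, 165 and 104 on the control diet and 19.1, 18.8 and 16.8 on the BCAA-free diet (-2.47 ± 0.31, adjusted p = 0.00131). Kif4, a chromosome-bound motor, had 37.7, 131 and 50.5 on the control diet and 13.05, 13.7 and 8.88 on the BCAA-free diet (-2.34 ± 0.44, adjusted p = 0.00536), and its X-linked locus overlaps Pdzd11 on the other strand. Kif23, a motor of the midzone, had 51.1, 174 and 75.2 on the control diet and 25.1, 16.2 and 17.8 on the BCAA-free diet (-2.12 ± 0.42, adjusted p = 0.00688). The 3 motors showed no overlap. Tpx2, which nucleates spindle microtubules, had 55.2, 198 and 90.5 on the control diet and 17.1, 16.2 and 16.8 on the BCAA-free diet (-2.51 ± 0.41, adjusted p = 0.00336). Nusap1, a spindle-associated protein, had 60.6, 126 and 51.9 on the control diet and 20.1, 22.2 and 26.7 on the BCAA-free diet (-1.64 ± 0.33, adjusted p = 0.00677). Aurkb, the kinase of the passenger complex, had 24.2, 81.2 and 41.2 on the control diet and 12.0, 12.8 and 4.94 on the BCAA-free diet (-2.12 ± 0.49, adjusted p = 0.0117). These 3 were also separate. Birc5, or survivin, had 32.3, 118 and 45.2 on the control diet and 9.03, 15.4 and 5.92 on the BCAA-free diet (-2.44 ± 0.50, adjusted p = 0.00797), and Cdca8, or borealin, had 22.9, 107 and 49.9 on the control diet and 6.02, 14.5 and 8.88 on the BCAA-free diet (-2.31 ± 0.54, adjusted p = 0.0134). Both belong to the same complex as Aurkb. Cdca8 lost its call without BCAA-free TAC replicate 1, as Bub1b did without BCAA-free TAC replicate 3. Aurka, the centrosomal kinase, had 28.3, 127 and 39.2 on the control diet and 24.1, 30.7 and 23.7 on the BCAA-free diet and did not pass (-0.98 ± 0.50, adjusted p = 0.158).

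The 4 cytokinesis genes fell. Prc1, which bundles midzone microtubules, had 83.5, 245 and 115 on the control diet and 25.1, 30.7 and 41.5 on the BCAA-free diet (-2.03 ± 0.38, adjusted p = 0.0061). Racgap1, a partner of Kif23, had 87.5, 297 and 135 on the control diet and 27.1, 38.4 and 31.6 on the BCAA-free diet (-2.21 ± 0.40, adjusted p = 0.00554). Anln, or anillin, of the contractile ring, had 95.6, 225 and 105 on the control diet and 41.1, 55.5 and 29.6 on the BCAA-free diet (-1.66 ± 0.35, adjusted p = 0.00922). In these 3 the diets did not overlap. Ect2, the exchange factor that starts furrow ingression, had 14.8, 94.3 and 44.6 on the control diet and 15.1, 5.97 and 7.90 on the BCAA-free diet (-2.04 ± 0.63, adjusted p = 0.0372), and was the only called mitosis member whose groups overlapped; its call held in 1 of the 6 fits that left out a library, that without control diet TAC replicate 1, and was lost with the GC and length trend removed (adjusted p = 0.057). The condensins, which compact chromosomes, were uneven. Smc2 had 133, 207 and 144 on the control diet and 89.3, 74.3 and 68.1 on the BCAA-free diet (-1.04 ± 0.20, adjusted p = 0.00618). Smc4 had 637, 874 and 700.4 on the control diet and 483, 494 and 481 on the BCAA-free diet, a smaller fall (-0.59 ± 0.12, adjusted p = 0.00682). Ncapd2 had 808, 899.8 and 827 on the control diet and 827, 974 and 869.7 on the BCAA-free diet and did not pass (0.073 ± 0.091, adjusted p = 0.562), although it has many more reads than most mitosis members.

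Replication genes moved less and in both directions. Of the helicase subunits, Mcm2 had 389, 489 and 361 on the control diet and 255, 320.1 and 273 on the BCAA-free diet (-0.54 ± 0.14, adjusted p = 0.0187) and Mcm3 had 234, 359 and 275 on the control diet and 183, 208 and 206 on the BCAA-free diet (-0.52 ± 0.16, adjusted p = 0.0369). Mcm5 had 148.1, 263 and 170.3 on the control diet and 115, 151 and 123 on the BCAA-free diet and did not pass (-0.54 ± 0.22, adjusted p = 0.0855). Only Mcm2 and Mcm3 fell. Mcm3 kept its call in 1 of the 6 fits that left out a library, that without control diet TAC replicate 1, and Mcm2 lost its call without BCAA-free TAC replicate 1 or 3. Mcm6 (-0.45 ± 0.19, adjusted p = 0.102), Mcm4 (0.056 ± 0.11, adjusted p = 0.736) and Mcm7 (0.15 ± 0.10, adjusted p = 0.264) did not pass either, with Mcm7 overlapping Cops6 and Ap4m1 on the other strand. Rrm2, the cell cycle regulated subunit of ribonucleotide reductase, had 92.9, 194 and 92.5 on the control diet and 34.1, 49.5 and 51.3 on the BCAA-free diet (-1.40 ± 0.31, adjusted p = 0.00987). Its partner Rrm1 did not pass (-0.071 ± 0.10, adjusted p = 0.627). Tyms, thymidylate synthase, had 70.0, 126 and 77.2 on the control diet and 52.2, 23.9 and 47.4 on the BCAA-free diet (-1.15 ± 0.33, adjusted p = 0.0281), a call lost without BCAA-free TAC replicate 2 or 3 or control diet TAC replicate 3, and with the GC and length trend removed (adjusted p = 0.0505). Tk1, thymidine kinase, did not pass (-0.35 ± 0.19, adjusted p = 0.182). The nucleotide enzymes Rrm2 and Tyms held the largest falls of this role. Pcna, the polymerase clamp, had 1184, 1183 and 1167 on the control diet and 1407, 1480.0 and 1422 on the BCAA-free diet and rose (0.29 ± 0.07, adjusted p = 0.0142). When libraries were scaled by their totals alone Pcna no longer passed (log2 fold change 0.156, adjusted p = 0.156), nor without control diet TAC replicate 3 (adjusted p = 0.0542).

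The D-type cyclins differed in size. Ccnd1 had 2169.9, 3018 and 2741 on the control diet and 1288, 1279 and 1363 on the BCAA-free diet (-0.999 ± 0.12, adjusted p = 0.00107). Ccnd2 had 3987, 6025 and 4468 on the control diet and 3126, 3484 and 3153 on the BCAA-free diet (-0.55 ± 0.14, adjusted p = 0.0186). Both were lower in every BCAA-free TAC library, but Ccnd2 no longer passed once the dependence on GC and length was taken out of the libraries (-0.302, adjusted p = 0.125), nor without BCAA-free TAC replicate 1 or 3. In mitosis members with TTTGAA in the promoter the median was -2.21 (21 genes) and in those without it -2.8 (5 genes). Both sets hold genes that passed the mean filter only through their control diet TAC values, so this contrast is no support. They are Cdk1, Hmmr, Ect2 and Cdca8 with TTTGAA, and Bub1, Ccnb1 and Cenpe without it.

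Markers of other cell types moved beside these genes. In the same comparison 8 of 12 fibroblast markers fell and none rose, 10 of 12 macrophage markers fell and none rose, 6 of 12 endothelial markers fell and 1 rose, and 7 of 12 cardiomyocyte markers rose and none fell, where 17.7% of all genes were called lower and 16.5% higher. Of 12 smooth muscle and pericyte markers 2 fell and 1 rose, and of 7 erythroid and haematopoietic markers tested 2 fell and 1 rose. The summed level of the fibroblast list was 74090 to 85830 on the BCAA-free diet and 100600 to 161400 on the control diet. For the macrophage list it was 9373 to 10930 and 13910 to 17180, for the endothelial list 57040 to 63730 and 66330 to 68170, and for the cardiomyocyte list 4122000 to 4154000 and 2645000 to 3279000. For the smooth muscle and pericyte list it was 138300 to 149400 and 138200 to 184000, and for the erythroid and haematopoietic list 14010 to 17170 and 18170 to 20480. Median log2 fold changes were -0.95 for fibroblast and -0.70 for macrophage markers, against -2.28 for the mitosis members. Of 12 lymphocyte markers 6 were listed, with sums of 86.9 to 124 and 95.6 to 171. Their part in the result was not tested.

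On the control diet, TAC hearts were set against sham hearts to see how the members stood under pressure overload with a full amino acid supply. Hmmr, Bub1 and Smc4 rose and Cenpf fell, and the other 26 mitosis members, all 11 replication members and both D-type cyclins did not pass the test. In Hmmr and Bub1 every sham value was under 10. They passed the mean filter of 10 only through their TAC values, so their calls are no support. Over all genes 4.04% were called, 2.95% higher and 1.09% lower, 454 and 168 genes. With library totals alone as the scale, which moved the median of all genes to 0.145, the called genes were 1267 and 149, and the sign of Ncapd2 turned. The mitosis members leaned upward, with a median of 1.32 and 28 of 30 above 0, against 49.4% of all genes above 0 and a median of -0.00467. In 18 of them the 3 TAC libraries lay above the 3 sham libraries, as they did for 17.8% of all genes, and in Cenpf below them, as for 17.4%. An unadjusted p under 0.05 was reached by 23 mitosis and 3 replication members and by 28.2% of all genes. The median of the replication members was 0.297, with 10 of 11 above 0.

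Hmmr had 6.96, 2.58 and 5.50 after sham and 13.2, 72.2 and 35.5 after TAC (2.56 ± 0.59, adjusted p = 0.0492). Bub1 had 3.48, 3.87 and 5.50 after sham and 15.4, 42.0 and 14.7 after TAC (2.10 ± 0.47, adjusted p = 0.0468). Smc4 had 401, 371 and 373 after sham and 520.3, 719 and 575 after TAC (0.65 ± 0.14, adjusted p = 0.0433). In these 3 genes each TAC library was above each sham library. Cenpf had 564, 572 and 389 after sham and 300.3, 244 and 275 after TAC (-0.88 ± 0.17, adjusted p = 0.0397), so that it was lower in each TAC library. Mki67 had 128, 63.1 and 136 after sham and 163, 628 and 272 after TAC and did not pass (1.54 ± 0.48, adjusted p = 0.089). Top2a had 75.7, 16.8 and 89.4 after sham and 117, 345 and 147 after TAC (1.87 ± 0.66, adjusted p = 0.117). For these markers the groups were separate, but TAC replicate 2 was the highest library and sham replicate 2 the lowest of all. Cdk1 had 33.9, 9.02 and 50.9 after sham and 56.1, 123 and 61.2 after TAC (1.53 ± 0.57, adjusted p = 0.126). Ccnb1 had 10.4, 5.15 and 15.1 after sham and 19.8, 107 and 34.4 after TAC (2.04 ± 0.60, adjusted p = 0.0722). Both had no overlap and did not pass.

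Replication members were nearer to 0. Mcm2 had 308, 281 and 382 after sham and 318, 402 and 297 after TAC (0.065 ± 0.16, adjusted p = 0.827). Mcm5 had 114, 83.8 and 142 after sham and 121, 217 and 139.8 after TAC (0.48 ± 0.26, adjusted p = 0.271). Both overlapped between the groups. Rrm2 had 54.0, 59.3 and 55.0 after sham and 75.9, 159 and 75.9 after TAC (0.78 ± 0.29, adjusted p = 0.123). Pcna had 986, 1079.9 and 1485 after sham and 968, 973 and 958 after TAC (-0.27 ± 0.15, adjusted p = 0.268). Rrm2 was higher in each TAC library and Pcna lower, and neither passed. Ccnd1 had 1674, 1119.8 and 1662 after sham and 1773, 2483 and 2250.4 after TAC (0.56 ± 0.18, adjusted p = 0.0917). Ccnd2 had 2845, 2698 and 2075 after sham and 3258, 4957 and 3668 after TAC (0.63 ± 0.18, adjusted p = 0.0663). Both cyclin genes were higher in each TAC library without passing.

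The calls of this comparison depended on single libraries. Of the mitosis members 0 were called without TAC replicate 2, TAC replicate 3, sham replicate 1 or sham replicate 2, 1 without sham replicate 3 and 10 without TAC replicate 1, while the median stayed between 0.913 and 1.68. Without TAC replicate 2 the mean of Bub1 was under 10, so Bub1 was not tested in that fit. DESeq2 on the recovered reads called 18 mitosis members higher and 1 lower. In the authors' deposited table, by their own adjusted p, the counts were 18 and 1. Their processing notes name DESeq2 too, on the same reads, so the 2 results are not independent. In this table the fibroblast list summed to 63270 to 72340 after sham and 82220 to 132800 after TAC (6 of 12 markers rose), with the highest sum in TAC replicate 2, and the macrophage list to 8345 to 12460 and 11370 to 14140 (1 of 12 rose). The smooth muscle and pericyte list summed to 87860 to 98090 after sham and 112900 to 151400 after TAC (3 of 12 rose), and the cardiomyocyte list to 3001000 to 3112000 and 2176000 to 2679000 (1 of 12 fell); their part in the result was not tested.

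The same question was asked on the BCAA-free diet, where no member passed the test for TAC against sham. Of 37 members listed, 35 were tested, since Cenpe and Ect2 had a mean value under 10, and 0 were called, against 6.23% of all genes (3.34% higher and 2.89% lower), while 3 had an unadjusted p under 0.05, against 24.5% of all genes. The median was -0.149 over 22 mitosis members and -0.0591 over 11 replication members, against 0.0014 over all genes, and 7 mitosis and 5 replication members were above 0, as were 50.2% of all genes. Called genes numbered 524 higher and 453 lower, and 378 and 492 with library totals alone. Of these mitosis members 1 was higher with no overlap, against 14.6% of all genes, and 2 were lower, against 15%. DESeq2 and edgeR on the recovered reads called 0 mitosis and 0 replication members too, though DESeq2 gave an adjusted p for 14 of the 35 members only, of which Ccnd1 passed (adjusted p = 0.044). Ccnd1 also passed in limma with a mean of at least 100 (adjusted p = 0.045). By the authors' deposited adjusted p Ccnd1 rose (0.0478), while 19 of the 24 mitosis members listed have none, so the absence of calls says little about those. Cdk1, Ccnb1, Ccnb2, Bub1, Aurkb and Hmmr are absent from this table.

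The nearest to a call was Ccnd1, with 1125, 981 and 996 after sham and 1243, 1232 and 1315 after TAC (0.29 ± 0.082, adjusted p = 0.0555). Every TAC library was above every sham library. Mki67 had 35.5, 28.6 and 46.5 after sham and 29.1, 44.4 and 26.7 after TAC (-0.15 ± 0.29, adjusted p = 0.802). Top2a had 9.22, 7.81 and 9.17 after sham and 6.78, 20.6 and 22.9 after TAC (0.71 ± 0.46, adjusted p = 0.373). Both overlapped. Kif11 had 28.4, 28.6 and 26.1 after sham and 18.4, 18.1 and 16.2 after TAC (-0.63 ± 0.28, adjusted p = 0.189), and Ube2c, which changed most against the majority, had 12.8, 7.81 and 5.64 after sham and 19.4, 13.2 and 15.2 after TAC (0.85 ± 0.40, adjusted p = 0.22). Neither passed, although their groups were separate. Cenpf had 1103, 786 and 697 after sham and 865, 862 and 775 after TAC (-0.022 ± 0.15, adjusted p = 0.951). Smc4 had 495, 502 and 595 after sham and 466, 476 and 464 after TAC (-0.17 ± 0.10, adjusted p = 0.317). Cenpf overlapped and Smc4 was lower in each TAC library without passing.

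Among replication members, Rrm1 had the smallest p, with 603, 630.0 and 643 after sham and 576, 501 and 463 after TAC (-0.29 ± 0.10, adjusted p = 0.104). Mcm2 had 305, 273 and 271 after sham and 246, 308 and 264 after TAC (-0.059 ± 0.13, adjusted p = 0.822) and Mcm5 had 119.8, 146 and 98.7 after sham and 111, 146 and 119 after TAC (0.053 ± 0.18, adjusted p = 0.898). The Mcm2 and Mcm5 groups overlapped. Rrm2 had 55.3, 72.9 and 48.7 after sham and 32.9, 47.7 and 49.5 after TAC (-0.44 ± 0.25, adjusted p = 0.304). Pcna had 1254, 1382 and 1314 after sham and 1358, 1425 and 1372 after TAC (0.073 ± 0.075, adjusted p = 0.593). Ccnd2 had 3007, 3153 and 3108 after sham and 3017, 3356 and 3041 after TAC (0.021 ± 0.072, adjusted p = 0.895). These 3 overlapped as well. Cdk1, whose reads could be put on this table's scale from the diet tables, had 9.93, 0 and 5.64 after sham and 6.78, 9.04 and 7.62 after TAC, from 0 to 14 reads a library, a description with no test.

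**Figure D3:**
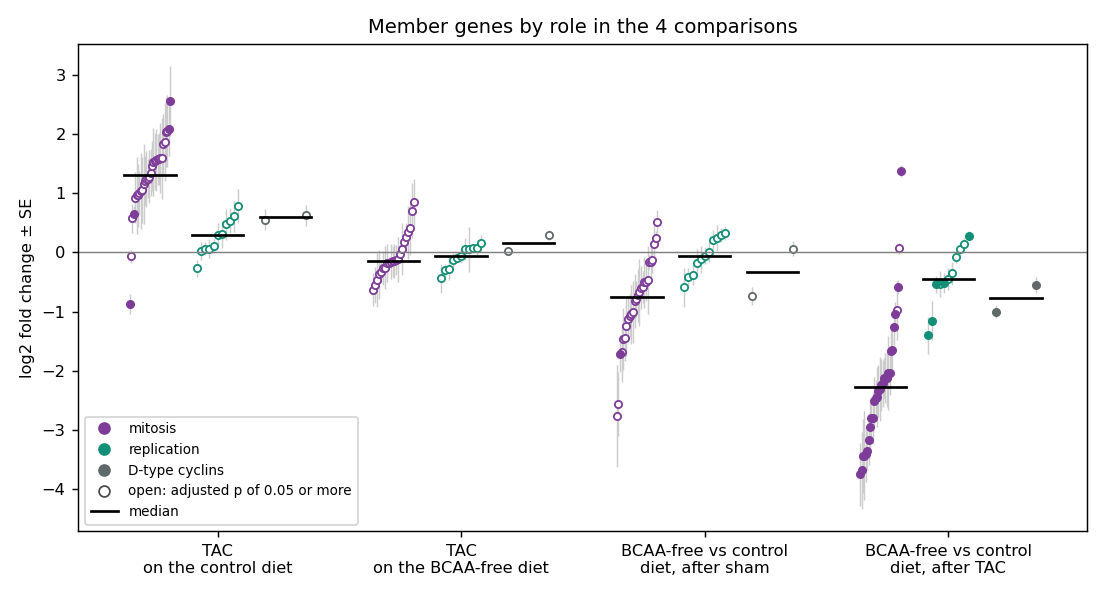
Log2 fold change ± SE (vertical axis) of every member tested, by role, in the 4 comparisons, with filled points for an adjusted p under 0.05 and a bar at the median. The mitosis median is 1.32 for TAC on the control diet (30 members), -0.149 for TAC on the BCAA-free diet (22), -0.759 for the diet after sham (26) and -2.28 for the diet after TAC (30). The medians thus cover different sets of members.

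The diets were also compared in sham hearts, without pressure overload. Mki67 fell on the BCAA-free diet and was the only member called, of 39 listed and tested, where 0.624% of all genes were called, 0.25% higher and 0.375% lower, 38 and 57 genes (52 and 45 with library totals alone). The median was -0.759 over 26 mitosis members, with 3 above 0, -0.0554 over 11 replication members, and -0.000451 over all genes. In 8 mitosis members the BCAA-free libraries lay below the control diet libraries with no overlap, as they did for 11.3% of all genes, and in 2, Cenpf and Smc4, above them, as for 11.7%. An unadjusted p under 0.05 was reached by 11 mitosis and 3 replication members and by 16.6% of all genes.

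Mki67 had 124, 61.2 and 130.4 on the control diet and 29.1, 23.5 and 38.2 on the BCAA-free diet (-1.71 ± 0.31, adjusted p = 0.0422). Top2a had 73.2, 16.2 and 85.6 on the control diet and 7.57, 6.41 and 7.53 on the BCAA-free diet (-2.56 ± 0.54, adjusted p = 0.0597). Iqgap3 had 42.1, 30.0 and 60.6 on the control diet and 14.0, 23.5 and 9.85 on the BCAA-free diet (-1.46 ± 0.37, adjusted p = 0.0966). In all 3 the diets were separate, with control diet replicate 2 nearest to the BCAA-free libraries. Ccnd1 had 1617, 1085 and 1592 on the control diet and 924, 806 and 819 on the BCAA-free diet (-0.73 ± 0.15, adjusted p = 0.0536). Cdk1 had 32.8, 8.74 and 48.7 on the control diet and 8.15, 0 and 4.63 on the BCAA-free diet (-2.77 ± 0.86, adjusted p = 0.165). They were separate but did not pass. Cenpf, again against the majority, had 545, 554 and 373 on the control diet and 906, 645 and 573 on the BCAA-free diet (0.52 ± 0.20, adjusted p = 0.222). It was higher in each BCAA-free library. Mcm2 had 298, 272 and 366 on the control diet and 250.4, 224 and 223 on the BCAA-free diet (-0.41 ± 0.15, adjusted p = 0.199). Mcm5 had 110.2, 81.1 and 136 on the control diet and 98.4, 119.7 and 81.1 on the BCAA-free diet (-0.11 ± 0.23, adjusted p = 0.842). Mcm2 was separate and Mcm5 overlapped. Rrm2 (-0.18 ± 0.23, adjusted p = 0.747), Pcna (-0.055 ± 0.14, adjusted p = 0.877) and Ccnd2 (0.064 ± 0.13, adjusted p = 0.838) overlapped too, with values of 52.1, 57.4 and 52.7 on the control diet and 45.4, 59.8 and 40.0 on the BCAA-free diet for Rrm2. Pcna had 953, 1046 and 1422 on the control diet and 1030.2, 1135 and 1079.9 on the BCAA-free diet, and Ccnd2 had 2749, 2614 and 1987 on the control diet and 2469, 2588 and 2554 on the BCAA-free diet.

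Control diet sham replicate 2 lay close to the BCAA-free sham libraries: its median log2 difference from the control diet sham mean over the 26 mitosis members was -0.691, against -0.793 to -0.716 in the BCAA-free libraries and 0.249 and 0.512 in the other control diet libraries. Without it 3 mitosis members were called lower and the median was -1.26, and among them Top2a passed (adjusted p = 0.00185). Top2a had a BCAA-free sham mean under 10 and passed the mean filter only through its control diet values. Its calls in this comparison are therefore no support. Mki67 did not pass without BCAA-free sham replicate 1 (adjusted p = 0.186), BCAA-free sham replicate 2 (adjusted p = 0.19) or control diet sham replicate 1 (adjusted p = 0.153), nor in a fit of all 12 libraries (adjusted p = 0.0569). DESeq2 on the recovered reads called 5 mitosis members lower, Mki67, Top2a, Iqgap3, Cdk1 and Ccna2, and Ccnd1. Cdk1 and Ccna2, like Top2a, had BCAA-free sham means under 10, so their calls are no support. The authors' deposited table holds 5 mitosis members and Ccnd1 as lower by their own adjusted p. Their processing notes name DESeq2 too, on the same reads, so the 2 counts are not independent. Top2a and Ccnd1 passed too with the GC and length trend removed and with all 12 libraries in 1 fit. The macrophage list summed to 6384 to 7213 on the BCAA-free diet and 8084 to 11930 on the control diet (0 of 12 called, median -0.685). Of its markers 9 were lower with no overlap, against 11.3% of all genes, and 10 had an unadjusted p under 0.05, against 16.6%. The fibroblast list summed to 57310 to 60290 and 61290 to 69270 (0 of 12 called). The smooth muscle and pericyte list summed to 103200 to 105100 and 84130 to 95020 (1 of 12 rose). The part of these cell types in the result was not tested.

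Whether the TAC response itself differed between the diets was tested by the interaction of diet and surgery over the 12 libraries of both TAC tables, as the TAC effect on the BCAA-free diet minus that on the control diet. Kif11 (-1.88 ± 0.41, adjusted p = 0.0204) and Smc4 (-0.82 ± 0.17, adjusted p = 0.0175) passed with a lower response on the BCAA-free diet, and Cenpf passed in the other direction (0.86 ± 0.24, adjusted p = 0.0432). These were 3 of the 37 members tested, a share near the 8.65% called over all genes. Of all genes 4.92% were called higher and 3.73% lower, 747 and 567 genes (386 and 1462 with library totals alone). The median was -1.26 over 24 mitosis members, with 22 below 0, and -0.398 over 11 replication members, of which 0 were called. In this test 13 mitosis and 2 replication members had an unadjusted p under 0.05, as did 4320 of all 15195 genes. Over all genes the median was -0.0299. Markers of other cell types moved in the same test: the fibroblast median was -0.77 with 3 of 12 called lower, 2 of 12 smooth muscle and pericyte markers were called lower, and 12 of 12 cardiomyocyte markers were above 0 with 2 called higher; their part in the result was not tested. Nearest to a call among replication members was Rrm2 (-1.22 ± 0.40, adjusted p = 0.0662). Mki67 (-1.69 ± 0.61, adjusted p = 0.0965) and Top2a (-1.16 ± 0.86, adjusted p = 0.394) did not pass, nor did Ccnd1 (-0.27 ± 0.21, adjusted p = 0.425), Ccnd2 (-0.61 ± 0.20, adjusted p = 0.0692), Mcm2 (-0.12 ± 0.21, adjusted p = 0.731), Mcm5 (-0.42 ± 0.34, adjusted p = 0.43) and Pcna (0.34 ± 0.17, adjusted p = 0.198). Cdk1, Ccnb1, Ccnb2, Bub1, Aurkb and Hmmr could not be tested here, since they are not listed for TAC on the BCAA-free diet.

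For Kif11 the TAC tables gave 34.8, 29.6 and 44.0 after sham and 55.0, 136 and 85.7 after TAC with the full diet, and 28.4, 28.6 and 26.1 after sham and 18.4, 18.1 and 16.2 after TAC without BCAA. TAC libraries were above sham libraries in the first case and below them in the second, with no overlap in either. Kif11 lost its call without BCAA-free TAC replicate 3 or BCAA-free sham replicate 1 or 2, and Smc4 without BCAA-free TAC replicate 3. With the GC and length trend removed the Smc4 value was -0.534 and did not pass (adjusted p = 0.0739), and with the replicate block as well Kif11 did not pass either (adjusted p = 0.0502). Cenpf kept its call in 3 of 12 such fits, those without control diet TAC replicate 1, control diet sham replicate 3 or BCAA-free sham replicate 1. Without BCAA-free TAC replicate 3, 0 mitosis members passed, and without control diet TAC replicate 1, 7 mitosis members and 1 replication member did. With libraries scaled by totals alone, which moved the median of all genes to -0.2, Cenpf did not pass (adjusted p = 0.0817).

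**Figure D4:**
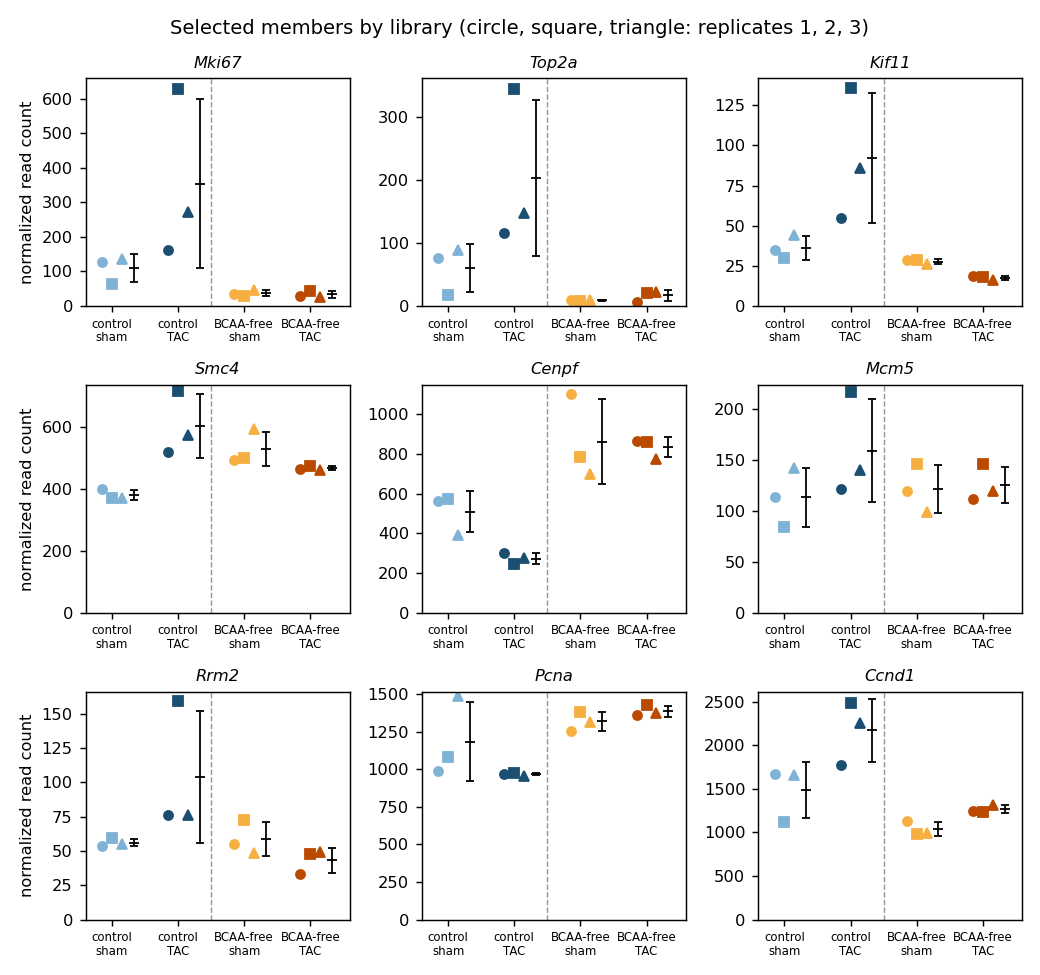
Normalized read counts (vertical axis, from 0) of 9 members in the 12 libraries, with replicates by symbol and mean ± SD (n = 3) at the right of each group. The dashed line separates the 2 tables, which were scaled separately, so levels compare only on the same side of it; control diet TAC replicate 2 is the highest control library for Mki67, Top2a, Kif11, Smc4, Mcm5, Rrm2 and Ccnd1, and the BCAA-free groups lie close together.

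Other genes of the same pathways were counted from lists chosen with the members. After TAC, 37 of 48 further mitosis genes fell on the BCAA-free diet and 1, the securin gene Pttg1 (0.73), rose, with a median of -1.69. The smallest p belonged to Ckap2 (-3.79 ± 0.52, adjusted p = 0.00198), Cep55 (-4.21 ± 0.61, adjusted p = 0.00202), Ckap2l (-3.44 ± 0.51, adjusted p = 0.00215) and Ndc80 (-3.05 ± 0.49, adjusted p = 0.00285), genes of spindle, midbody and kinetochore proteins. Comparisons with control diet TAC libraries listed 48 of the further mitosis genes each, while those without them listed 28 and 30. Some genes may therefore have entered only through their control diet TAC values, and which ones is not shown. The count of 37, the median of -1.69 and the calls of Ckap2, Cep55, Ckap2l and Ndc80 are thus no support. Foxm1, a transcription factor of the mitotic genes, fell from a mean of 100.3 to 21.9 (-2.08 ± 0.37, adjusted p = 0.0044), and Mybl2, its partner at these promoters, fell from 39.0 to 11.7 (-1.61 ± 0.43, adjusted p = 0.0197). Of 44 further replication genes 7 fell and 8 rose, with a median of -0.0641, shares near the 17.7% lower and 16.5% higher of all genes. The 4 with the smallest p were the polymerase delta genes Pold1 (0.68 ± 0.10, adjusted p = 0.00196) and Pold2 (0.53 ± 0.094, adjusted p = 0.00407), the replication licensing inhibitor Gmnn (0.62 ± 0.091, adjusted p = 0.00218) and the dUTPase gene Dut (0.70 ± 0.11, adjusted p = 0.00295).

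Of 26 genes of G1 cyclins, their kinases, E2F and the DREAM complex, 5 fell and 2 rose on the BCAA-free diet after TAC (median -0.211), fewer than the 34.2% of all genes called. E2f3 (-0.84 ± 0.10, adjusted p = 0.00114), Cdk6 (-0.75 ± 0.13, adjusted p = 0.00351), the pocket protein gene Rbl1 (-0.76 ± 0.18, adjusted p = 0.011) and E2f1 (-1.38 ± 0.43, adjusted p = 0.0392) fell, and the DREAM subunit gene Lin52 rose (0.64 ± 0.11, adjusted p = 0.00341). Of 9 CDK inhibitor and p53 arrest genes tested, 3 fell and none rose, near the 34.2% called over all genes: Cdkn1a, which encodes p21 (-0.99 ± 0.20, adjusted p = 0.00931), Cdkn2b, which encodes p15 (-1.51 ± 0.45, adjusted p = 0.0303), and Ccng1 (-0.29 ± 0.093, adjusted p = 0.0383). Cdkn1c, the p57 gene, did not pass (0.55 ± 0.20, adjusted p = 0.074).

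In the other comparisons few of these genes were called. For TAC on the control diet the further mitosis genes had a median of 1.09, under the same limit of listing, so this median is no support. Knl1, a kinetochore gene, rose (2.54 ± 0.50, adjusted p = 0.0404), while Foxm1 (1.56 ± 0.50, adjusted p = 0.0873) and Mybl2 (1.55 ± 0.42, adjusted p = 0.0631) did not pass. Of the further replication genes Timeless, of the fork protection complex, rose (0.63 ± 0.12, adjusted p = 0.0404) and Dut fell (-0.75 ± 0.16, adjusted p = 0.043), with a median of 0.0199. E2f3 (0.47 ± 0.14, adjusted p = 0.0791), Cdk6 (0.46 ± 0.15, adjusted p = 0.0883), E2f1 (0.82 ± 0.48, adjusted p = 0.295), Cdkn2b (1.12 ± 0.49, adjusted p = 0.174), Trp53 (0.35 ± 0.17, adjusted p = 0.231), Cdkn1a (-0.21 ± 0.42, adjusted p = 0.78) and Cdkn1c (-0.20 ± 0.22, adjusted p = 0.603) did not pass.

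For TAC on the BCAA-free diet Cdkn2d, which encodes the CDK4 and CDK6 inhibitor p19, rose (0.35 ± 0.086, adjusted p = 0.0376) as the 1 call in these lists. Values that did not pass were 0.35 ± 0.15, adjusted p = 0.167 for Cdc25b, -0.45 ± 0.19, adjusted p = 0.169 for Ncapg2, 0.49 ± 0.34, adjusted p = 0.417 for Foxm1 and -0.11 ± 0.43, adjusted p = 0.907 for Mybl2. They were 0.29 ± 0.089, adjusted p = 0.0723 for Pold2, -0.25 ± 0.081, adjusted p = 0.0875 for Orc3, -0.26 ± 0.08, adjusted p = 0.0699 for Rbl2, 1.19 ± 0.41, adjusted p = 0.101 for E2f1, -0.69 ± 0.20, adjusted p = 0.0915 for Cdkn1a and 0.0099 ± 0.10, adjusted p = 0.967 for Cdkn1c. For the diet after sham none was called, and the smallest p of each list belonged to Nek2 (-2.37 ± 0.74, adjusted p = 0.154) and Kif15 (-0.93 ± 0.41, adjusted p = 0.281), Rpa2 (0.40 ± 0.12, adjusted p = 0.15) and Gins1 (0.71 ± 0.24, adjusted p = 0.183), E2f1 (-1.71 ± 0.46, adjusted p = 0.104) and Lin52 (0.43 ± 0.14, adjusted p = 0.154), and Cdkn1b (0.43 ± 0.11, adjusted p = 0.092) and Cdkn1c (0.34 ± 0.15, adjusted p = 0.269), beside Foxm1 (-0.99 ± 0.45, adjusted p = 0.303) and Cdkn1a (-0.50 ± 0.49, adjusted p = 0.668). In the interaction Pttg1 (0.64 ± 0.18, adjusted p = 0.0455), Dut (0.84 ± 0.18, adjusted p = 0.0195), Pold2 (0.60 ± 0.17, adjusted p = 0.0468) and E2f3 (-0.63 ± 0.18, adjusted p = 0.0459) were called, and Foxm1 (-1.07 ± 0.63, adjusted p = 0.274), Mybl2 (-1.67 ± 0.61, adjusted p = 0.0935), E2f1 (0.36 ± 0.68, adjusted p = 0.761), Cdkn2b (-1.70 ± 0.65, adjusted p = 0.107), Cdkn2d (0.29 ± 0.15, adjusted p = 0.215), Cdkn1a (-0.48 ± 0.56, adjusted p = 0.606) and Cdkn1c (0.21 ± 0.27, adjusted p = 0.649) were not.

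Levels per kb of the longest transcript allow genes to be ranked against each other. In TAC hearts Pcna (776 ± 6.51 with the control diet and 946 ± 25.3 without BCAA, SD, n = 3), Ccnd2 (762 ± 168 and 514 ± 31.5) and Ccnd1 (707 ± 116 and 350 ± 12.4) were the highest of the 43 members on both diets, followed by Ncapd2 (183 ± 10.5 and 192 ± 16.3). Bub1 was the lowest on both (8.56 ± 5.52 and 0.468 ± 0.607). Top2a had a rank of 16 for level on the control diet (47.3 ± 28.7) and of 33 on the BCAA-free diet (3.32 ± 1.73). On the control diet Pcna, Ccnd2 and Ccnd1 lay within their spread of each other.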

How the data were processed

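RNA of 12 heart samples (4 groups of 3, grouped by the labels) was sequenced after polyA selection. STAR 2.5.2b, Subread 1.5.2, Trimmomatic 0.36 and DESeq2 are named in the submitters' processing notes, with GRCm38/mm10; whether counting used strand is not given in the sources used here. The authors deposited 4 tables of 6 libraries, in which the signal values are gene reads divided by 1 factor per library; all values were whole reads within 0.01 once multiplied back. The log2 fold changes and adjusted p-values deposited by the authors were used only where named.

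Here values were tested as log2(value + 1), so fold changes of low genes are understated, with limma 3.58.1 (R 4.3.3; trend, robust) in genes with a mean of at least 10, with Benjamini-Hochberg adjustment over all genes tested and calls at 0.05. The interaction used 12 libraries. DESeq2 1.42.0, edgeR 4.0.16 and the other alternatives are given in the closing section. The fit was tested on simulated data, where it called 76.5% of genes changed by a log2 fold of 1 and 96.9% of those changed by 2 for the diet after TAC among 15741 genes, and for TAC on the control diet 64% and 95.9%, among 15276 genes. For the interaction the shares were 61% and 87%. The changed genes were drawn at random from all genes, whose median mean value was 439 for the diet after TAC, against 57.9 for the mitosis members. These shares therefore need not hold for the members. Intervals on reads are exact Poisson at 95% and cover counting error only. Of gene IDs 99.8% matched GENCODE M21. Promoters are RefSeq's.

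Members and lists were chosen with earlier results of these data known. Values by library are given for called members, the 4 members with the smallest p and the largest contrary change in each comparison, and 12 set members; from other lists, up to 4 called genes or the 2 with the smallest p, with E2f1, Foxm1, Mybl2, Cdkn1a and Cdkn1c.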

Additional observations from a re-analysis of the deposited data

Results flagged for a closer look

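The TAC response of 3 members differed between the diets by the interaction test in limma over 12 libraries. The TAC effect on the BCAA-free diet minus that on the control diet was -1.88 log2 for Kif11, -0.825 log2 for Smc4 and 0.857 log2 for Cenpf. These were 3 of 37 members tested, a share near the 8.65% of all genes called. The count is therefore not particular to the members. Without BCAA-free TAC replicate 3 none of them passed. With the GC and length trend removed the value of Smc4 was -0.534 and did not pass (adjusted p = 0.0739), and with the replicate block as well Kif11 did not pass (adjusted p = 0.0502). With library totals alone Cenpf did not pass (adjusted p = 0.0817).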

How the results depend on the processing

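No direction of a called member turned under any alternative run. For TAC on the control diet the mitosis members called numbered 9 with library totals alone, 2 with a mean of at least 100, 2 with a pseudocount of 10, 19 with DESeq2, 2 with the GC and length trend removed together with the replicate block, and 13 with all 12 libraries in 1 fit, and all genes called 1416 with totals alone, 2203 with DESeq2, 1483 with the trend removed and 2988 with 12 libraries. For TAC without BCAA the mitosis median was -0.022 with a mean of at least 100 and -0.018 with the trend removed, with or without the replicate block, and genes called were 1490 with DESeq2, 85 with the trend removed, 180 with trend and block and 59 with 12 libraries. For the diet after sham the mitosis members called were 0 with a mean of at least 100 (median 0.239), 5 with DESeq2, 3 with the replicate block, 2 with the trend removed and 3 with both, and genes called were 52, 531, 143, 374 and 407 in that order and 366 with 12 libraries. Top2a, Cdk1 and Ccna2 count here where called, with BCAA-free sham means under 10, so their calls are no support. For the diet after TAC a mean of at least 100 left 7 mitosis members called (median -1.62) and 3 replication members; Top2a, Mki67, Iqgap3, Racgap1 and Smc2 passed that filter only through their control diet TAC values, so the count and median are no support. In the interaction, replication members called were 2 with totals alone, 1 with DESeq2 and 1 with the replicate block, mitosis members 7 with DESeq2 and 1 with trend and block, and genes 2229 with DESeq2, 638 with the trend removed and 800 with trend and block; the medians were -0.293 for mitosis and -0.16 for replication with a mean of at least 100, and -0.184 for replication with the trend removed, with or without the block. A mean of at least 100 tests fewer genes; for the other settings the cause was not tested.

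Leaving out 1 library at a time gave 0 to 10 mitosis members called (median 0.913 to 1.68), a replication median of 0.114 to 0.44 and 0 to 1091 genes for TAC on the control diet; a mitosis median of -0.247 to -0.0801, a replication median of -0.141 to -0.00509 and 48 to 1184 genes for TAC without BCAA; and 0 to 3 mitosis members (median -1.26 to -0.469), a replication median of -0.107 to 0.0509 and 6 to 475 genes for the diet after sham. It gave 26 to 29 mitosis members (median -2.71 to -1.77), 2 to 7 replication members (median -0.576 to -0.227) and 3369 to 5269 genes for the diet after TAC, and 0 to 7 mitosis members (median -1.63 to -0.819), 0 to 1 replication members (median -0.432 to -0.178) and 216 to 1733 genes for the interaction.

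Same-numbered samples did not deviate together (correlations -0.182 to 0.0812, and 1 of 12 correlated best with its own number), so the numbers were not taken as pairs. With the replicate block 3 mitosis members were called for TAC on the control diet, 27 for the diet after TAC and 3 in the interaction; Hmmr (TAC on the control diet), Ect2 and Tyms (diet after TAC) lost their calls, and Ccnd2 (TAC on the control diet), Top2a, Cdk1 and Ccnd1 (diet after sham), Mcm5 (diet after TAC) and Rrm2 and Ccnd2 (interaction) gained one. Top2a and Cdk1 had BCAA-free sham means under 10, so the calls they gained are no support. Depth limits the genes with few reads, such as Bub1.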
